A study of Mus musculus with 6 samples.

Results

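The genes described here encode the core of the Hedgehog pathway: the ligands *Shh*, *Ihh* and *Dhh*, the receptor *Ptch1*, the signal transducer *Smo*, the inhibitor *Sufu* and the transcription factors *Gli1*, *Gli2* and *Gli3*. They are 9 genes chosen by name, of which 8 were among the 18169 genes of the deposited table. The libraries came from Hepa 1–6, a hepatoma line of the mouse that the labels call a hepatocyte. In 3 libraries the cells had been treated with Shh, and in 3 libraries with vehicle. No allele or transgene is named for either group, so both groups are 1 cell line that differs by the treatment. In the study's experiments on this line Shh was dosed as a protein, so *Shh* transcripts would be the cells' own. The sources used here give neither the dose nor the duration for these libraries. Whether libraries of 1 group stem from separate cultures is not stated either, and a p-value here reflects only the spread among libraries, which may be technical. Poly(A) RNA had been read in single-end reads of 50 bases, and the estimated counts summed to 20253781 to 20335463 per library.

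As background, a Hedgehog ligand binds Patched at the cell surface, and Patched, which otherwise holds Smoothened inactive, then releases it. Active Smoothened gathers in the primary cilium, where the Gli factors are freed from Sufu and are no longer cut into repressors. *Gli1*, *Ptch1* and *Hhip* are standard transcriptional readouts of the pathway in mouse cells, and in the liver the ligands are best known from injury, where stellate cells and ductular cells respond. These libraries can therefore be asked how much of this machinery the hepatoma cells transcribed, and whether any of it differed after Shh.

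Because a read held 50 bases, it mattered whether a read could come from more than 1 of these related genes. Stretches of that length where all 3 members of a family are alike are shown, to let the families be compared base by base. They were taken from GENCODE M21 on the mouse genome GRCm38, as the coding stretch of *Ihh* or *Gli1* with the fewest differences, summed over the other family members, so single pairs can be more alike elsewhere. Capitals mark bases that differ from *Ihh* in the ligands and from *Gli1* in the Gli factors. All are coding, 5′ to 3′ on the gene's strand. The ligand stretches lie in exon 1, at chr1:74950925-74950974 (minus strand) for *Ihh*, chr15:98897995-98898044 (minus strand) for *Dhh* and chr5:28466486-28466535 (minus strand) for *Shh*. Those of the Gli factors lie in the part encoding the DNA-binding zinc fingers, in exon 11 of *Gli1* at chr10:127333725-127333774 (minus strand), exon 12 of *Gli2* at chr1:118842124-118842173 (minus strand) and exon 13 of *Gli3* at chr13:15720079-15720128 (plus strand).
Ihh: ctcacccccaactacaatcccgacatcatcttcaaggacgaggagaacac
Dhh: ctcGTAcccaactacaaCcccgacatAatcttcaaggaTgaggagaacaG
Shh: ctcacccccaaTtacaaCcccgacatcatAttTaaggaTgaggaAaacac
Gli1: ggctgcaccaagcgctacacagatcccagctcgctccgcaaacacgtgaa
Gli2: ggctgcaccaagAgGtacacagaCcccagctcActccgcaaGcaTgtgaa
Gli3: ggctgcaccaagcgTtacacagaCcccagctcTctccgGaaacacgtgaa

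In these stretches *Dhh* differed from *Ihh* at 7 of 50 bases and *Shh* at 6. *Gli2* differed from *Gli1* at 6 and *Gli3* at 4. No stretch of 50 bases in the transcripts compared was identical between any pair of the 9 genes, and over all pairs of coding stretches the fewest differences were 2, between *Gli1* and *Gli2*, at a place not shown. The typical stretch was much less alike, with medians of 18 to 24 differences to its best match in another member of its family. Identical stretches were shared with genes outside the 9 instead, all but 1 of which overlap the gene in question. For *Dhh* they were 23.0% of its 50-base stretches, shared with *Rhebl1* on the same strand and with a gene model on the opposite strand. For *Gli1* they were 5.76%, shared with *Arhgap9* and a gene model, both on the opposite strand. *Smo* shared 2.33% with the gene model *Gm4066*, while *Ihh*, *Ptch1*, *Sufu*, *Gli2* and *Gli3* shared none. These shares are for 1 GENCODE transcript per gene, which need not be the one counted: that of *Dhh* has 4242 bases and that of *Sufu* 1747, while the deposited counts and FPKM give lengths of 2567 and 4475 bases. The sources used here do not say how the counting treated strand, so part of the counts of *Dhh* and *Gli1* may belong to their neighbours. *Rhebl1* had 389, 332 and 403 estimated counts in the Shh libraries and 436, 351 and 350 in the vehicle libraries, more than *Dhh* in each. *Arhgap9* had 313, 335 and 352 in the Shh libraries and 314, 349 and 310 in the vehicle libraries.

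Hepa 1–6 cells carried transcripts of both signal-receiving proteins and of 2 ligands, but few of the Gli factors. In FPKM, the deposited level that is scaled to transcript length and sequencing depth, the order was *Smo*, *Ihh*, *Sufu*, *Ptch1*, *Dhh*, *Gli1*, *Gli2* and *Gli3* by the mean over all 6 libraries. *Smo* stood at the 86.3 percentile of the genes listed and *Gli1* at the 39.9 percentile. Down to *Gli2*, the lowest library of each gene was above the highest library of the next gene, with ratios of mean FPKM of 1.77 for *Smo* over *Ihh*, 2.05 for *Ihh* over *Sufu*, 2.14 for *Sufu* over *Ptch1*, 1.61 for *Ptch1* over *Dhh* and 4.54 for *Dhh* over *Gli1*. The widest gap was from *Gli1* to *Gli2*, at 32.8. *Gli2* and *Gli3* overlapped in FPKM and were not separated.

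**Figure D1:**
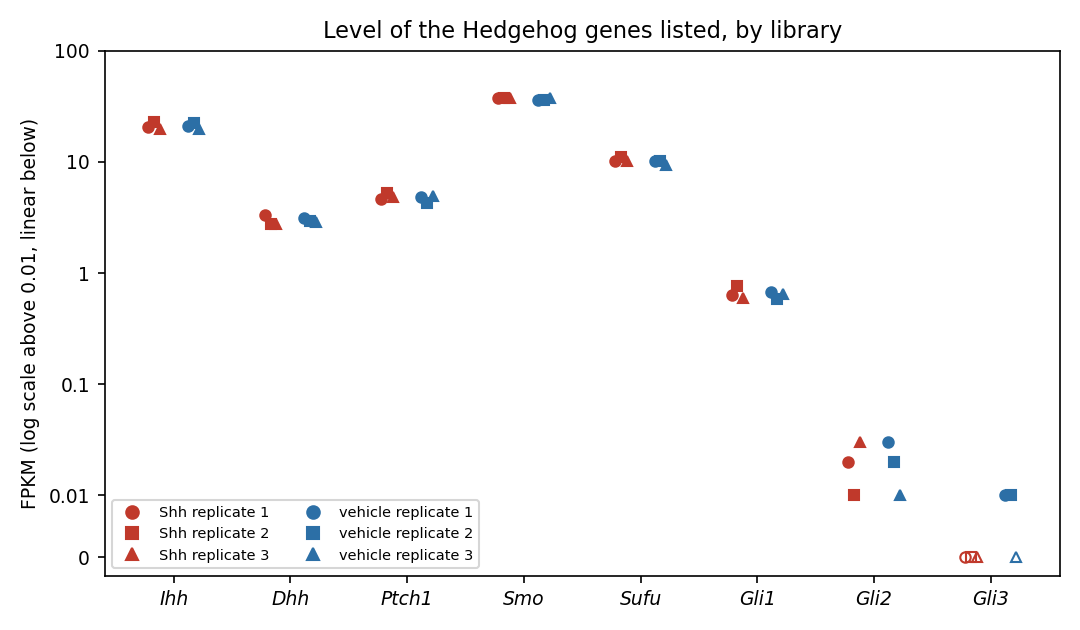
FPKM (log scale above 0.01, linear below) of the 8 Hedgehog genes listed, with 1 point per library, the Shh libraries in red to the left of the vehicle libraries in blue, and open points for libraries listed at 0. The 6 libraries of each gene sit close together for *Ihh*, *Dhh*, *Ptch1*, *Smo*, *Sufu* and *Gli1*, from 35.96 to 37.90 FPKM for *Smo* down to 0.59 to 0.77 for *Gli1*, while *Gli2* and *Gli3* lie at or under 0.03 FPKM.

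Among the ligands, *Ihh*, which in mice directs cartilage and gut development, was the most abundant. It had 20.59, 22.66 and 19.81 FPKM in the Shh libraries (replicates 1 to 3) and 21.05, 22.22 and 19.63 FPKM in the vehicle libraries. The values of the groups were interleaved, with replicate 3 lowest on both sides. As estimated counts these were 911, 1000 and 870 in the Shh libraries, against 933, 959 and 877 in the vehicle libraries. After scaling by TMM (trimmed mean of M-values, which sets libraries on one scale), *Ihh* averaged 45.3 ± 2.75 CPM (the count as a share of the scaled library total, in ppm) with Shh and 45.9 ± 2.27 CPM with vehicle (SD, n = 3 each). Its log2 fold change, Shh over vehicle, was -0.018 (standard error 0.058, 95% interval -0.14 to 0.11, adjusted p = 0.928 from edgeR's quasi-likelihood test over 12286 genes). The interval spans folds of 0.905 to 1.08.

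*Dhh*, the ligand known from testis and peripheral nerve, was the other ligand with counts in every library. It had 3.30, 2.79 and 2.77 FPKM with Shh, against 3.12, 2.97 and 2.88 FPKM with vehicle, so the Shh libraries held both its highest and its lowest values. *Ihh* exceeded *Dhh* 6.24- to 8.12-fold in FPKM within single libraries. The 171, 148 and 145 estimated counts of *Dhh* with Shh and 160, 153 and 154 with vehicle gave a log2 fold change of -0.033 (standard error 0.10, 95% interval -0.25 to 0.19, adjusted p = 0.925 from edgeR). The spread of *Dhh* counts between vehicle libraries, an SD of 3.79, was below the 12.5 that counting error alone would give, and between Shh libraries it was 14.2 against 12.4.

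*Shh* itself, the ligand added to the cells and the one most studied in liver injury, had no row in the table. Every gene listed had a value above 0 in at least 1 library, so the table holds no gene at 0 throughout, and no level or limit was set for *Shh*. No 50-base stretch of its transcript is identical to one of *Ihh* or *Dhh*, while 23.6% of its 50-base stretches are shared with overlapping genes on the opposite strand.

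*Ptch1* encodes the receptor and is at the same time a transcriptional target of the pathway, so its level is a usual readout of a Hedgehog response. It had 682, 766 and 710 estimated counts in the Shh libraries and 713, 630 and 735 in the vehicle libraries. The highest value was in Shh replicate 2 and the lowest in vehicle replicate 2, and in between both other Shh libraries lay below both other vehicle libraries. In CPM, *Ptch1* averaged 35.2 ± 1.60 with Shh and 34.4 ± 2.67 with vehicle (SD, n = 3 each). The log2 fold change was 0.030 (standard error 0.065, 95% interval -0.11 to 0.17, adjusted p = 0.891 from edgeR), which spans folds of 0.926 to 1.13. An induction of *Ptch1* larger than 1.13-fold thus lay outside the interval of this fit, which reflects only the spread among these 6 libraries. It is not a limit of detection, and the standard error depended on the method, at 0.084 in DESeq2. The direction depended on single libraries, since leaving out Shh replicate 2 gave -0.0063 and leaving out vehicle replicate 2 gave -0.033. Those libraries held the highest and the lowest value, so lower fold changes without them follow from that choice. Leaving out any other library gave 0.0368 to 0.0725.

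*Smo*, the transducer on which Patched acts, was the most abundant of the genes, at 37.49, 37.69 and 37.90 FPKM with Shh and 35.96, 36.34 and 37.27 FPKM with vehicle. In FPKM, which is scaled by library totals, the Shh libraries were all above the vehicle libraries. After TMM scaling the groups overlapped, with 147 ± 2.01 CPM with Shh and 145 ± 2.21 CPM with vehicle (SD, n = 3 each). The log2 fold change on that scale was 0.021 (standard error 0.039, 95% interval -0.063 to 0.10, adjusted p = 0.870 from edgeR), the narrowest interval of the 6 genes tested. *Smo* transcripts exceeded those of *Ptch1* 7.23- to 8.49-fold in FPKM, with the lowest ratio in Shh replicate 2 and the highest in vehicle replicate 2.

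*Sufu*, which binds Gli factors and holds them out of the nucleus, had 930, 1012 and 929 estimated counts with Shh, against 924, 930 and 850 with vehicle. The counts were close to those of *Ihh*, but over a longer transcript (4475 bases, against 2180 for *Ihh*, as recovered from the deposited counts and FPKM), so its level per length was lower, at 10.55 ± 0.537 FPKM with Shh and 9.92 ± 0.504 FPKM with vehicle (SD, n = 3 each). Its log2 fold change, 0.062 (standard error 0.054, 95% interval -0.055 to 0.18, adjusted p = 0.683 from edgeR), was the farthest from 0 and had the smallest p of the 6, and the groups overlapped. The genes whose pattern over the 6 libraries was closest to that of *Sufu*, by the root mean square difference of centred log2 CPM, were *Mical3* at 0.011, *Wwp2* at 0.017 and *Tob2* at 0.019, among 11039 genes with a median of 0.10. All 4 genes were lowest in vehicle replicate 3 and highest in Shh replicate 2. The other genes were chosen for their likeness to *Sufu*, so this shared order is no separate observation.

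Of the Gli factors, *Gli1*, the activator that is itself induced by the pathway, was the only one with enough counts to test. It had 47, 56 and 44.1 estimated counts in the Shh libraries and 50, 43 and 48 in the vehicle libraries. Shh replicate 2 was highest and vehicle replicate 2 lowest, as for *Ptch1*, and among the remaining libraries both Shh values were below both vehicle values. These were 0.670 ± 0.089 FPKM with Shh and 0.640 ± 0.046 FPKM with vehicle (SD, n = 3 each). The log2 fold change was 0.036 (standard error 0.18, 95% interval -0.36 to 0.43, adjusted p = 0.955 from edgeR). At this depth the interval spans folds of 0.779 to 1.35, so a change of *Gli1* within it cannot be told from none. The interval is not a limit of detection, and larger changes could also fail to be called. The SDs between libraries, 6.22 counts with Shh and 3.61 with vehicle, were no larger than the 7.0 and 6.86 of counting error. Without Shh replicate 2 the log2 fold change was -0.060, and without vehicle replicate 2 it was -0.024. As these were the highest and the lowest library, lower fold changes without them follow from that choice. Leaving out any other library gave 0.0484 to 0.1043.

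*Gli2*, in mice the main initial activator of Hedgehog targets, was at the edge of detection, with 3, 1 and 4 counts in the Shh libraries and 4, 2 and 1 in the vehicle libraries. The sums were 8 counts with Shh (exact 95% Poisson interval 3.45 to 15.8) and 7 with vehicle (2.81 to 14.4), intervals that cover counting error only. *Gli3*, known in mice mainly as a repressor, had 0 counts in each Shh library and 1, 1 and 0 counts in the vehicle libraries. Its sum of 0 with Shh has an upper limit of 3.69 counts, within the interval of 0.242 to 7.23 around the 2 counts with vehicle, so no difference was detectable. Neither gene passed the expression filter, and no fold change is given for them. In bulk RNA such as this, fewer cells transcribing a gene and less RNA per cell cannot be told apart.

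Of the 6 genes tested, none passed an adjusted p under 0.05, as did 0% of all 12286 genes tested. None of the 6 reached an unadjusted p under 0.05 in edgeR or in DESeq2, against 10.4% of all genes tested in edgeR. In DESeq2 an unadjusted p under 0.05 was reached by 339 genes on the higher and 475 on the lower side, and none was called. None had its Shh libraries all above its vehicle libraries (6.79% of all genes in CPM after TMM scaling) or all below them (8.67%). Scaled by library totals alone, 1 of the 6, *Smo*, had its Shh libraries on top, as did 10.0% of all genes. The median size of the log2 fold change, without its sign, was 0.032 over the 6 genes and 0.069 over all genes tested, and the signed medians were 0.026 and 0.0028. In data simulated for this comparison the same test recovered 47% of 1.2-fold changes over 12184 genes. It recovered 83.5% of 1.5-fold changes over 12185 genes and 92% of 2-fold changes over 12175 genes. In each simulation 200 genes picked at random were changed, and genes varied independently. The simulated libraries thus lacked the trend with transcript length described below. Each simulated gene had the spread typical of its level, and no library was noisier than the others, unlike Shh replicate 2 here. This simulation therefore does not give the share of real changes that would be found in these libraries. The rates are averages over genes of all levels and do not hold for a gene with few counts such as *Gli1*.

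**Figure D2:**
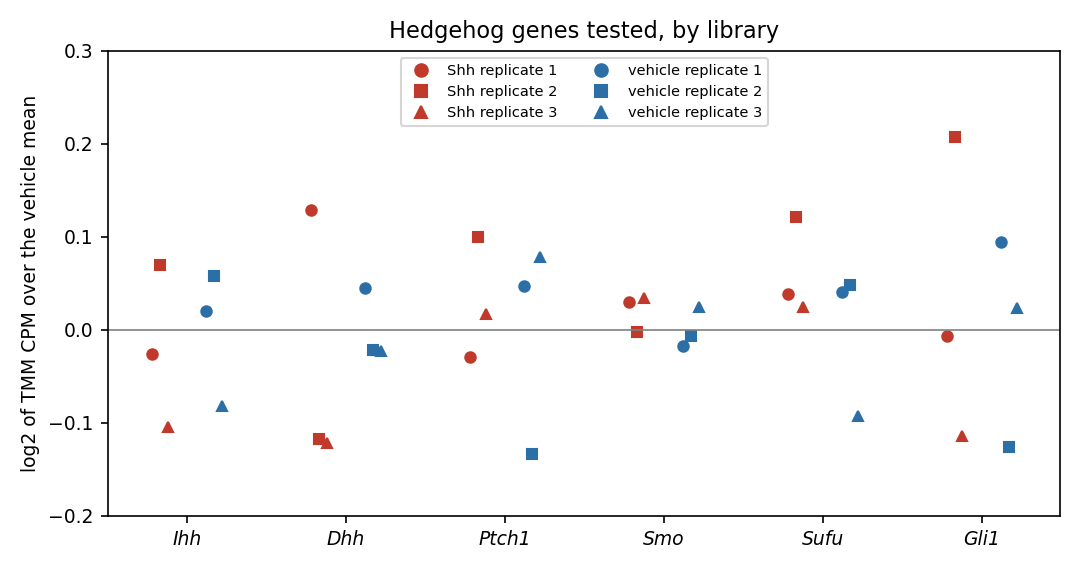
Level of each tested Hedgehog gene in each library, as log2 of TMM-scaled CPM over the mean of the vehicle libraries (0, grey line), with the Shh libraries in red to the left and the vehicle libraries in blue to the right. The groups overlap for all 6 genes, and Shh replicate 2 (red square) is the highest library for *Ihh*, *Ptch1*, *Sufu* and *Gli1*.

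Shh replicate 2 was the highest library for 4 of the 6 genes, *Ihh*, *Ptch1*, *Sufu* and *Gli1*, at 0.07, 0.10, 0.12 and 0.21 above the vehicle mean on the log2 scale. For *Dhh* the highest library was Shh replicate 1, and for *Smo* it was Shh replicate 3. How many of all genes were highest in Shh replicate 2 was not counted, so this is not read as particular to these genes. Shh replicate 2 also stood apart over the whole transcriptome: set against each vehicle library, its chi-square over degrees of freedom was 9.80 to 12.3, where Shh replicate 1 gave 2.22 to 2.71, Shh replicate 3 gave 2.86 to 4.95 and the vehicle libraries among themselves gave 1.72 to 2.35. No pair of libraries was a copy of one another. The difference went with transcript length. Genes in the quartile with the longest transcripts had a median of 0.13 over the vehicle mean in Shh replicate 2 on the log2 scale, and those in the quartile with the shortest had -0.16. The corresponding medians were 0.009 and -0.024 in Shh replicate 1 and 0.054 and -0.062 in Shh replicate 3. In the vehicle libraries they were -0.012 to 0.013 for the longest and -0.013 to 0.006 for the shortest. In Shh replicate 2, *Ptch1* (7259 bases) and *Sufu* (4475 bases), which fall in the longest quartile, were at 0.10 and 0.12. In the next quartile, with a median of 0.037 in that library, *Smo* (3930 bases) was at -0.002 and *Gli1* (3620 bases) at 0.21. In the one below, with a median of -0.044, *Dhh* (2567 bases) was at -0.12 and *Ihh* (2180 bases) at 0.07, so the 6 genes did not all follow the trend. With an offset for transcript length the log2 fold change of *Ptch1* became -0.048 and that of *Smo* -0.017, while *Sufu* was at 0.013 and *Gli1* at 0.0044, and none was called. The offset was fitted to each library without regard to group, and every Shh library leaned the same way. It would thus also remove a difference between the groups that goes with length.

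Beyond the 9 genes, 56 genes of the pathway were examined in 4 lists, of which 46 passed the filter and none was called (smallest adjusted p = 0.469 from edgeR). Their median log2 fold change was 0.014, with 26 of 46 above 0, beside a median of 0.0028 and 6285 of 12286 above 0 for all genes tested. An unadjusted p under 0.05 was reached by 3 of them (6.52%) in edgeR, against 10.4% of all genes, and by 0 of them in DESeq2. In 6 (13.0%) the Shh libraries were all above the vehicle libraries and in 2 (4.35%) all below, beside 6.79% and 8.67% of all genes tested.

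Of 13 target and feedback genes, 8 were tested, with a median log2 fold change of 0.04 and a range of -0.066 to 0.12. *Hhip*, a feedback gene whose product binds and sequesters ligand, had few counts, with 2, 1 and 1 in the Shh libraries and 0, 3 and 1 in the vehicle libraries. *Ccnd2*, *Foxf1* and *Foxf2* were also under 0.1 FPKM on average. The abundant members of the list are genes that answer to many pathways. *Spp1*, which encodes osteopontin, had 347, 348 and 377 FPKM with Shh and 363, 349 and 373 FPKM with vehicle, with overlapping groups and a difference of -0.043 on the log2 scale (standard error 0.046, adjusted p = 0.749 from edgeR). *Ccnd1*, which encodes cyclin D1, had 256, 270 and 259 FPKM with Shh, against 245, 247 and 250 FPKM with vehicle. Its Shh libraries were all above, by a log2 fold change of 0.055 that did not pass (standard error 0.037, adjusted p = 0.590 from edgeR) and was 0.021 with the length offset. The anti-apoptotic gene *Bcl2*, named after its values were seen, also had its Shh libraries on top, at 0.12 (standard error 0.12, adjusted p = 0.723 from edgeR). *Foxm1* and *Foxa2*, transcription factors of proliferation and of hepatocyte identity, were at 0.024 and 0.026.

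**Figure D3:**
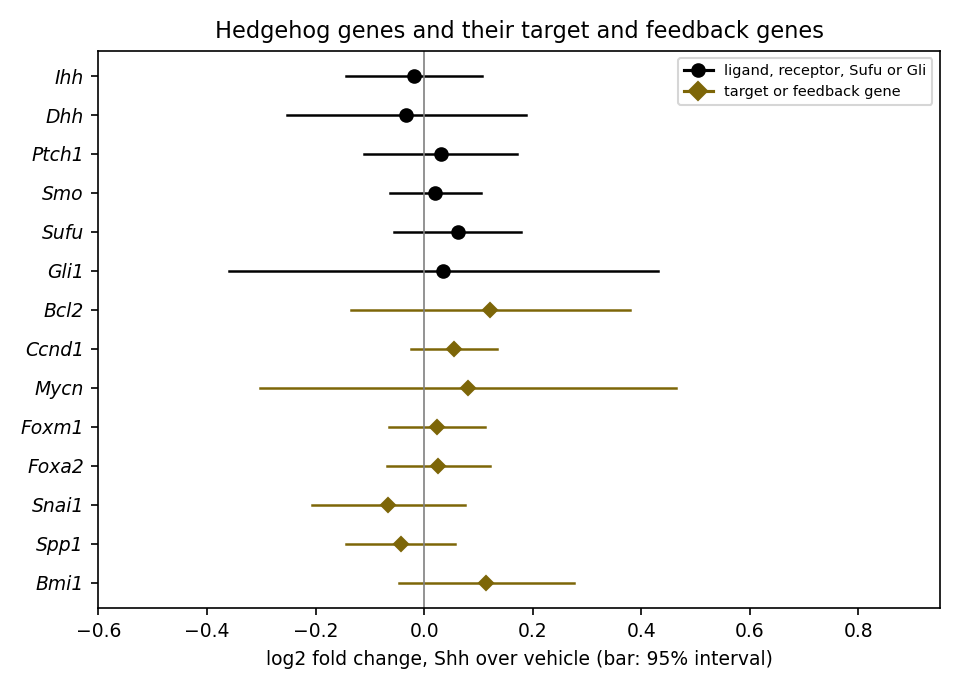
Log2 fold change, Shh over vehicle, with its 95% interval from edgeR, for the 6 Hedgehog genes tested (black circles) and the 8 target and feedback genes tested (brown diamonds). All 14 intervals include 0, and that of *Gli1*, -0.36 to 0.43, is the widest of the 6 Hedgehog genes and that of *Smo*, -0.063 to 0.10, the narrowest.

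Among 10 genes for ligand release and co-reception, 6 were tested and their median log2 fold change was 0.01. The most abundant was *Disp1*, which releases the lipid-bearing ligand from cells that make it, with 2.10, 1.94 and 1.96 FPKM with Shh and 1.71, 2.04 and 2.05 FPKM with vehicle. *Hhat*, the enzyme that attaches palmitate to the ligands, averaged 0.853 ± 0.075 FPKM with Shh and 0.960 ± 0.092 FPKM with vehicle (SD, n = 3 each), and its groups overlapped. Of the co-receptors that help ligand to Patched, *Cdon* averaged 0.753 ± 0.153 FPKM with Shh and 0.797 ± 0.137 FPKM with vehicle, *Gas1* averaged 0.187 ± 0.031 FPKM with Shh and 0.150 ± 0.026 FPKM with vehicle, and *Boc* was at most 0.06 FPKM in any library. *Scube1*, *Scube2* and *Lrp2* were also under 0.1 FPKM on average, and *Scube3*, a secreted ligand carrier, was at 0.403 ± 0.025 FPKM with Shh and 0.397 ± 0.059 FPKM with vehicle.

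All 22 genes for the control of Smo and the Gli factors were tested, with a median log2 fold change of 0.01. Most are enzymes with many other substrates, led in level by *Gsk3a*, *Csnk1a1* and *Csnk1d*, kinases that mark Gli proteins, and *Cul1*, a ubiquitin ligase scaffold. *Gpr161*, a ciliary receptor that restrains the pathway through protein kinase A, had the largest difference of the list and was named after its values were seen. It had 97.8, 99.8 and 94.5 counts in the Shh libraries, against 82.0, 75.0 and 76.3 in the vehicle libraries, with no overlap. Its log2 fold change was 0.31 (standard error 0.12, 95% interval 0.037 to 0.58), with an adjusted p of 0.469 from edgeR, so it was not called. It was 0.30 without Shh replicate 1 and 0.30 without Shh replicate 2. *Gsk3b*, likewise named after its values were seen, and *Csnk1a1* also had their Shh libraries on top, at 0.12 (adjusted p = 0.478 from edgeR) and 0.083 (adjusted p = 0.479 from edgeR). With the length offset *Gsk3b* and *Csnk1a1* were both at 0.038 and *Gpr161* at 0.23, and without Shh replicate 2 *Gsk3b* was at 0.075.

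Of 11 primary cilium genes that Hedgehog signaling uses, 10 were tested, with a median log2 fold change of -0.01. *Tulp3*, *Kif3a*, *Iqce* and *Rab23* led in level, at 25.8, 8.66, 7.88 and 7.56 FPKM with Shh and 25.4, 8.07, 7.75 and 7.34 FPKM with vehicle on average, and their groups overlapped in CPM. *Arl13b*, a small GTPase of the ciliary membrane, had its Shh libraries on top, at 10.8 ± 0.528 CPM against 9.45 ± 0.467 CPM with vehicle (SD, n = 3 each), which on the log2 scale is 0.19 higher (standard error 0.083, adjusted p = 0.478 from edgeR). *Ift172* and *Evc* had their Shh libraries at the bottom, at -0.17 and -0.27 (adjusted p = 0.563 and 0.734 from edgeR). These 3 genes were named after their values were seen.

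**Figure D4:**
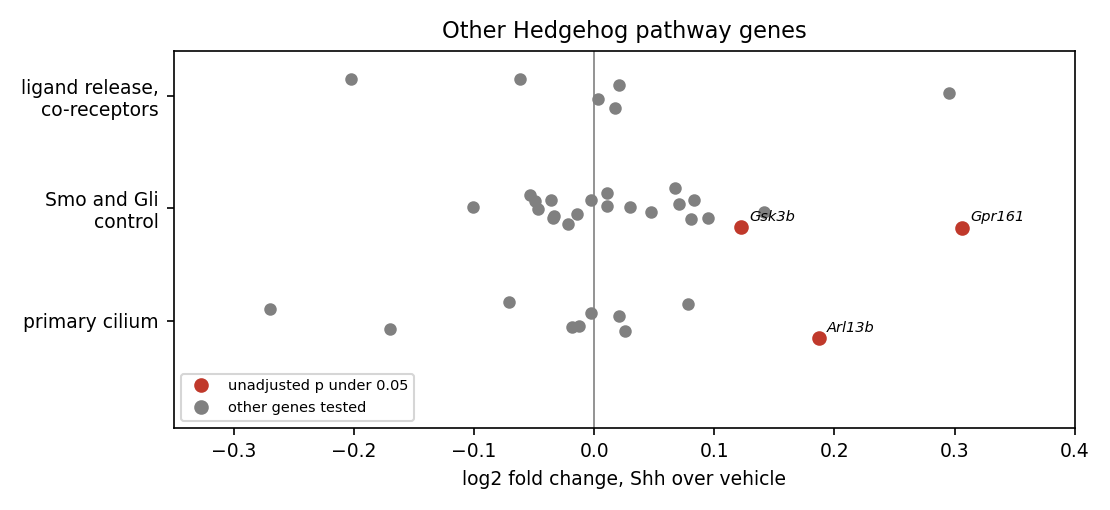
Log2 fold change, Shh over vehicle, of the tested genes for ligand release and co-reception (6), Smo and Gli control (22) and the primary cilium (10), with 1 point per gene, red for an unadjusted p under 0.05 and spread vertically only for legibility. The points centre near 0 in each list, and the 3 red ones, *Gpr161* at 0.31, *Arl13b* at 0.19 and *Gsk3b* at 0.12, did not pass after adjustment.

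The label of the cells was checked against markers. Of 10 hepatoma and hepatocyte markers 8 were at 1 FPKM or more on average, led by *Krt18*, *Apoe*, *Krt8* and *Alb*. Their summed levels were 4065 to 4298 FPKM with Shh and 4251 to 4334 FPKM with vehicle. Other markers of the list were low: *Apoa1* averaged 3.20 FPKM and *Ttr* 0.49 FPKM, and *Serpina1a* was under 0.1 FPKM in every library. Since stellate cells and ductular cells are the usual Hedgehog-responsive cells of the liver, their markers are given beside *Ptch1* and *Gli1*. The 10 stellate cell and fibroblast markers summed to 504 to 552 FPKM with Shh and 500 to 526 FPKM with vehicle, nearly all of it *Dcn*, and *Lrat*, *Reln* and *Pdgfrb*, defining genes of stellate cells and pericytes, were under 0.1 FPKM on average, with *Pdgfrb* highest in Shh replicate 1 at 0.13. Of 8 macrophage and leukocyte markers 7 had a row, with sums of 12.5 to 22.7 FPKM with Shh and 15.2 to 17.2 FPKM with vehicle, and *Adgre1* and *Ptprc* were under 0.1 FPKM on average but at 0.14 and 0.28 FPKM in Shh replicate 1. The 6 endothelial markers summed to 0.32 to 0.73 FPKM with Shh and 0.37 to 0.64 FPKM with vehicle. The 6 cholangiocyte markers, which include *Spp1*, summed to 471 to 504 FPKM with Shh and 476 to 497 FPKM with vehicle. Most of this was *Spp1* and *Krt7*, at 359 and 99.1 FPKM on average over all libraries. *Sox9*, *Krt19* and *Epcam* averaged 18.1, 5.12 and 4.33 FPKM, and *Cftr* only 0.013 FPKM. Shh replicate 1 had the most counts of several stellate cell and leukocyte markers, with *Col1a1* at 440, 170 and 151 counts in the Shh libraries and 160, 318 and 225 in the vehicle libraries, and *Col3a1* at 320, 75 and 53 with Shh and 73, 161 and 141 with vehicle. *Lyz2*, a myeloid lysozyme, had 101, 27.5 and 27.4 counts with Shh and 34.9, 57.2 and 43.0 with vehicle, and *Ptprc*, the leukocyte antigen CD45, had 28, 8 and 3 with Shh and 7, 5 and 8 with vehicle. Without Shh replicate 1 the median log2 fold change of the tested stellate cell and fibroblast markers was -0.58, against 0.093 with it. That of the macrophage and leukocyte markers was -0.39, against 0.19 with it. *Acta2* was then called lower (log2 fold change -0.85, adjusted p = 0.0462 from edgeR). It was 1 of 7 tested markers of its list, in a fit that called 195 of 12391 genes. Shh replicate 1 is singled out here for its high marker counts, so lower values without it follow in part from that choice. In that same library *Dhh* was the highest of all 6 libraries, *Ptch1* had the fewest counts of the Shh libraries and *Gli1* was within the range of the vehicle libraries. Without it the log2 fold change of *Dhh* was -0.12, and none of the 6 Hedgehog genes was called. The part of these markers in the levels of the Hedgehog genes was not tested.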

How the data were processed

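Hepa 1–6 RNA was sequenced by the authors in 3 Shh and 3 vehicle libraries. For each gene the authors deposited an estimated count (36.4% of those above 0 were fractional) and FPKM, which they had scaled to transcript length and library total. The deposited TPM and the authors' averages were not analysed. Liver exosomes are named in the series' design text, but the sample labels name the cell line and were followed. The submitters' processing notes list Bowtie2. The counting tool, its strand setting, the build and the annotation are likewise not given in the sources used here.

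Estimated counts were rounded and tested in R 4.3.3 with edgeR 4.0.16 (TMM, filter with a minimum count of 10 and minimum total of 15, quasi-likelihood test with group as the term) with Benjamini-Hochberg adjustment at 0.05. Totals were 20253781 to 20335463 counts per library, and in simulated data changes near 1.2-fold were recovered for only part of the genes. FPKM served for levels between genes and, at 0.5 or more, to recover transcript lengths. Alternatives were DESeq2 1.42.0, upper-quartile factors, other filters, the replicate number as a block, a length offset, both together, no TMM and leaving out each library. The test was checked on simulated counts. Sequences were read from GENCODE M21.

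The 9 genes, the lists and the tests were chosen with earlier results of these data known. Named genes were all 9, up to 4 genes of highest mean FPKM per list, *Hhip* and *Spp1*, and the 3 genes most like the Hedgehog gene of smallest p (mean of 1 CPM or more, with a proper name). Other co-receptors, genes at low levels and markers were named to complete their lists, and a few genes for their values, as stated beside them. A gene that this rule takes is not reported here.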

Additional observations from a re-analysis of the deposited data

How the results depend on the processing

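None of the 6 genes tested was called under any of 13 alternatives each (adjusted p = 0.516 to 0.999 from edgeR or DESeq2). In 66 of these 78 cases the direction held. Many of the cases refit the same 6 libraries with like settings, so this share is no measure of how stable the directions are. The log2 fold changes that turned were *Ptch1*, at -0.048 with the length offset and -0.0458 with the replicate block and length offset, *Smo*, at -0.0169 and -0.0171, and 8 cases with 1 library left out. Over the 6 fits that each left out 1 library, the log2 fold change was -0.065 to 0.0228 for *Ihh*, -0.1201 to 0.0091 for *Dhh*, -0.0327 to 0.0725 for *Ptch1*, 0.0113 to 0.0343 for *Smo*, 0.0194 to 0.086 for *Sufu* and -0.0598 to 0.1043 for *Gli1*. Over all genes, edgeR called 0, DESeq2 called 0, and edgeR called 1 with no filter, 1 with the length offset, 5 with the replicate block and length offset, and 0 to 195 with 1 library left out (195 without Shh replicate 1, 3 without Shh replicate 2, 2 without vehicle replicate 3). At an unadjusted p under 0.05, 1277 genes passed in edgeR, among them 2 of the Smo and Gli control genes and 1 of the primary cilium genes. Without TMM, 1 of the 6 genes, *Smo*, had no overlap between the groups. Mean levels per length from TMM-scaled CPM moved by less than 1 SD from FPKM in 11 of 12 cases. The lengths were themselves recovered from FPKM, so little beyond the TMM factors, 0.988 to 1.0253, could differ. This is no separate check of the levels. Libraries with the same replicate number did not deviate together (r = -0.04, -0.054 and 0.098 over genes), so the numbers were not taken as a pairing, and the replicate block called 0 genes. The cause of these changes was not tested. Few counts left *Gli2* and *Gli3* without a test.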
